A study of Saccharomyces cerevisiae with 16 samples.

Results

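The comparison set yeast cells held for 6 h in hydroxyurea against cells held for 4 h. The organism was Saccharomyces cerevisiae, strain CDY59, which the labels call wild type. Cells grew in the rich medium YPD to an optical density of 0.5 and then received 200 mM hydroxyurea for 1, 2, 4 or 6 h. Each of the 8 slides of the series carried treated RNA in 1 channel and RNA of the untreated culture in the other. The 6 h cells had 2 slides and the 4 h cells 2 slides, chosen by the labelled time alone, which makes 4 of the 8 slides and 8 of the 16 readings. Within each pair, the treated RNA lay in channel 1 on 1 slide and in channel 2 on the other. Values are given in that order, channel 1 first, and slides of the same orientation were subtracted from each other, 6 h minus 4 h. The labels give no mating type, no untreated culture matched in time, and no word on whether cultures were repeated for the second slide. The p-values therefore measure only the spread between these slides, which may be technical.

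Hydroxyurea quenches the radical of ribonucleotide reductase, the enzyme that makes the deoxyribonucleotides for DNA synthesis. Replication forks then slow, and the Mec1, Rad53 and Dun1 checkpoint kinases raise transcription of the reductase genes and restrain mitosis. In budding yeast the arrest is also accompanied by oxidative and general stress responses and by lower transcription of the genes of ribosome production. Whether any of these responses went on shifting between the 2 latest times of the series is what the comparison addresses.

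Each value is a treated over untreated log ratio, taken as log2, with 0 set at the median gene of the reading. Which channel was divided by which is not labelled. The ratios were turned so that RNR2 and RNR4, induced by hydroxyurea in the textbook, came out positive, a direction that is likely but not established. With the opposite direction every sign would turn. Slides of the same orientation correlated over genes at 0.807 in channel 1 and 0.816 in channel 2 between 6 h and 4 h. Slides of opposite orientation correlated at 0.579 within 6 h and 0.504 within 4 h. With all slides in the model, the 1 h and 2 h slides entered only through the estimate of the error. With a 4 h or 6 h slide left out, they also entered the difference, through the orientation term. They correlated between orientations at -0.08 and -0.03. These correlations describe single slides over genes that are not independent, and shared labelling of the channels enters them. The slides named 3127 genes, and channel intensities were not used here, so signal over background is unknown.

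No gene passed the test. By limma with Benjamini-Hochberg adjustment, 0 of 3127 genes (0%) had an adjusted p under 0.05 for 6 h minus 4 h, and the smallest adjusted p was 1. At an unadjusted p under 0.05 there were 38 genes (1.22%), 21 of them higher at 6 h (0.672%) and 17 lower (0.544%). The median standard error of a difference was 0.255 and the median unadjusted 95% interval reached 0.589 to each side. Differences of that size or smaller were not detectable for the typical gene. Larger ones also failed the adjusted test, such as 1.26 for COX5A. In the mean of the orientations, 2985 genes (95.5%) differed by less than 0.5. All differences below are therefore values of 4 slides that did not pass the test, and none is given as a change.

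The differences in the 2 orientations were nearly unrelated over genes, with a correlation of 0.0616 between them and standard deviations of 0.310 in channel 1 and 0.340 in channel 2. The 2 readings of the same slides gave more similar differences, with correlations of 0.850 in channel 1 and 0.876 in channel 2. A total of 861 genes (27.5%) were higher at 6 h in both orientations and 679 (21.7%) lower in both. For 321 genes (10.3%) both 6 h slides lay above both 4 h slides, and for 267 genes (8.54%) below both. A difference of at least 0.5 in both orientations was reached by 17 genes in the higher direction (0.544%) and 23 in the lower (0.736%). There were 32 genes (1.02%) that stood above the median gene on both 6 h slides and below it on both 4 h slides, and 29 genes (0.927%) that were placed the other way round. The plot of the differences in the 2 orientations shows a round cloud of genes.

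**Figure D1:**
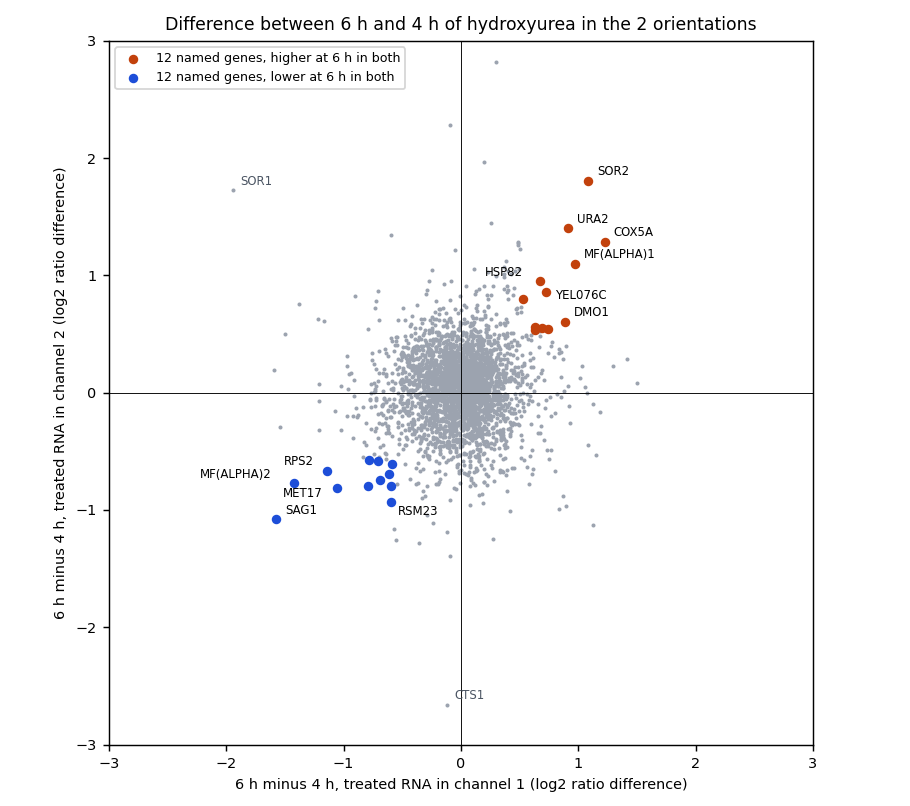
Each point is a gene, with its 6 h minus 4 h difference (log2 ratio difference) on the slides with treated RNA in channel 1 on the x axis and in channel 2 on the y axis, for 3127 genes. Red points are the 12 named genes higher at 6 h in both orientations and blue points the 12 lower in both, the more distant of which are labelled. The cloud is round (correlation 0.0616), and SOR1 and CTS1 show differences of which the orientations disagree in sign or in size.

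Ribonucleotide reductase transcripts were high at both times. RNR2 (YJL026W), a small subunit of the enzyme, stood at 3.14 and 3.05 on the 6 h slides, against 2.80 and 3.45 on the 4 h slides. RNR4 (YGR180C), the other small subunit, stood at 2.61 and 2.69 on the 6 h slides, against 2.37 and 3.12 on the 4 h slides. For both genes the 6 h values lay between the 4 h values, and the orientations gave differences of opposite sign. The mean difference was -0.03 ± 0.95 for RNR2 and -0.10 ± 0.70 for RNR4, with 95% intervals of -2.22 to 2.17 and -1.72 to 1.52. These wide intervals leave room for a sizeable difference in either direction, and both genes served to set the sign of the ratios. The error was estimated with the 1 h and 2 h slides too, where the orientations lay far apart. RNR2 stood there at -0.98 and 3.57 at 1 h and at 1.78 and 4.70 at 2 h, and RNR4 at 0.14 and 2.42 and at 1.80 and 5.30.

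DUN1 (YDL101C), the kinase downstream of Rad53 that relieves repression of the reductase genes, did not serve for the sign. It stood at 1.25 and 1.21 on the 6 h slides, against 0.35 and 0.81 on the 4 h slides, so that both 6 h slides lay above both 4 h slides. Its mean difference was 0.65 ± 0.38 (unadjusted p = 0.13, limma). It was 0.16 without the 6 h channel 1 slide and 1.14 without the 6 h channel 2 slide. Here and below, values with a slide left out draw on the orientation gap of the other slides, 1 h and 2 h included. MEC1, the upstream checkpoint kinase, differed by 0.16 with the same sign in both orientations. The other 3 measured genes of the pathway were RAD53, WTM1 and WTM2, and their orientations disagreed in sign. Of the 7 measured of 15 listed genes, 2 were higher at 6 h in both orientations and 0 lower, against 27.5% and 21.7% of all genes. The median difference was 0.07, against 0.02 over all genes. RNR1, RNR3 and HUG1 were not analysed here.

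COX5A (YNL052W), the aerobic isoform of a subunit of cytochrome c oxidase, had the smallest p of all genes. It stood at 0.62 and 0.46 on the 6 h slides, against -0.61 and -0.83 on the 4 h slides. It was thus above the median gene on both 6 h slides and below it on both 4 h slides. With the readings averaged, the orientations gave nearly the same difference, 1.23 and 1.29. The size depended on the reading, with 0.83 and 0.86 in the readings titled faible and 1.62 and 1.71 in those titled fort. The mean difference was 1.26 ± 0.28 (95% interval 0.61 to 1.90, unadjusted p = 0.00214, adjusted p = 1, limma), a ratio of 2.39 if the base is 2. Earlier in treatment the gene stood at -0.53 and -0.67 at 1 h and at 0.29 and -0.75 at 2 h, so that among the earlier slides only the 2 h channel 1 slide was above the median gene.

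The other 6 measured subunits of the same enzyme, chosen after values were seen, lay closer to 0. COX6, COX7, COX8, COX9, COX12 and COX13 had mean differences from -0.16 for COX7 to 0.36 for COX13. Only COX13 among these 6 was higher by at least 0.2 in both orientations, with 0.49 and 0.22. Over the respiratory chain and ATP synthase list, 20 of 52 measured genes (38.5%) were higher at 6 h in both orientations and 7 (13.5%) lower, against 27.5% and 21.7% of all genes. The list's median difference was 0.11. Without centring 4 members were higher in both orientations and 8 lower, against 6.3% and 32.5% of all genes. More were then lower than higher, but the share lower was still below that of all genes. The channel 2 median of the list was then -0.36, at a median gene of -0.37. ATP2, the catalytic beta subunit of the ATP synthase, stood at -0.48 and -0.34 on the 6 h slides, against -0.78 and -1.01 on the 4 h slides. CBP3, an assembly factor of complex III, lay the other way, with differences of -0.97 and -0.20.

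Tricarboxylic acid cycle genes gave a similar picture from 11 measured members, of which 5 were higher in both orientations and 2 lower, against 27.5% and 21.7% of all genes, with a median difference of 0.13. Without centring 3 were higher and 4 lower, against 6.3% and 32.5% of all genes. More were then lower than higher, but both shares lay above those of all genes. MDH1 (YKL085W), the mitochondrial malate dehydrogenase, stood at 0.01 and 0.41 on the 6 h slides, against -0.47 and -0.32 on the 4 h slides. It was the only named member of the cycle that was above the median gene on both 6 h slides and below it on both 4 h slides. On the 6 h channel 1 slide it was only just above, at 0.005. CIT1, the citrate synthase that opens the cycle, had differences of 0.27 and 0.91, and SDH2, the iron-sulfur subunit of succinate dehydrogenase, 0.10 and 0.64. LSC2, a subunit of succinyl-CoA ligase, lay lower, with -0.50 and -0.13. Of 29 glucose-repressed genes, 13 (44.8%) were higher in both orientations and 3 (10.3%) lower, with a median of 0.14. Without centring 6 of the glucose-repressed genes were higher and 4 lower, and the channel 2 medians of both lists were negative, -0.23 for the cycle and -0.25 for the glucose-repressed genes.

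SOR2 (YDL246C), a sorbitol dehydrogenase, was, beside COX5A, the only gene higher at 6 h by at least 1 in both orientations. It stood at 2.75 and 3.34 on the 6 h slides, against 1.67 and 1.53 on the 4 h slides, with a mean difference of 1.45 ± 0.34 (unadjusted p = 0.00285, adjusted p = 1, limma). At 1 h it stood at 0.59 and 0.50 and at 2 h at 2.13 and 1.21, so that the 6 h slides carried the highest values of the series. SOR1, its near-identical paralog, gave 0.41 and 2.82 on the 6 h slides, against 2.35 and 1.10 on the 4 h slides. The orientations of SOR1 thus disagreed, with differences of -1.94 and 1.73, although the sequences are so alike that spots of the 2 genes may bind the same RNA. The SOR2 value is uncertain for that reason. AQY3, of the aquaglyceroporin family and like SOR1 named after its values were seen, stood at 2.38 and 2.52 on the 6 h slides, against 1.96 and 1.51 on the 4 h slides, with both 6 h slides the higher.

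Genes of the mating system differed in both directions. MF(ALPHA)1 (YPL187W), the main gene for the alpha-factor pheromone, stood at 1.93 and 1.94 on the 6 h slides, against 0.96 and 0.84 on the 4 h slides. MF(ALPHA)2 (YGL089C), the minor gene for the same pheromone, stood at -1.41 and -1.32 on the 6 h slides, against 0.02 and -0.55 on the 4 h slides. Their differences were therefore of opposite sign, 1.04 ± 0.26 for MF(ALPHA)1 (unadjusted p = 0.00383, limma) and -1.10 ± 0.26 for MF(ALPHA)2 (unadjusted p = 0.00318). SAG1 (YJR004C), the alpha-agglutinin of the cell surface, stood at -2.62 and -2.28 on the 6 h slides, against -1.04 and -1.20 on the 4 h slides. It was the only gene lower by at least 1 in both orientations, with differences of -1.58 and -1.08. Its mean difference of -1.33 ± 0.56 was -0.49 without the 4 h channel 1 slide and -2.16 without the 4 h channel 2 slide. Its standard error was large, and the earlier slides of opposite orientation were far apart, -1.47 and 0.38 at 1 h and -0.94 and 1.41 at 2 h.

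The remaining mating genes differed by smaller amounts. STE3, the receptor that alpha cells use, had a mean difference of -0.13 ± 0.25 from 2 spots that disagreed in sign, -0.37 and 0.11. The a-cell transcripts AGA2, MFA1 and MFA2, which encode a surface agglutinin subunit and the a-factor pheromone, differed by 0.07, 0.13 and 0.25. AGA1, the anchor subunit of the a-agglutinin, stood at -1.01 and -1.18 on the 6 h slides, against -0.49 and -1.12 on the 4 h slides. STE4, the beta subunit of the pheromone G protein, had differences of -0.44 and -0.32 from 2 spots. Of 24 measured mating genes, 9 were higher in both orientations and 7 lower, against 27.5% and 21.7% of all genes, with a median of -0.06. Without centring 1 was higher and 10 were lower, against 6.3% and 32.5% of all genes. The fixed markers of other cell states that were measured also included IME2 and SPO11, which act in meiosis, with differences of 0.24 and -0.10. In RNA of whole cultures, fewer cells of a kind and less RNA per cell cannot be told apart.

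URA2 (YJL130C), the protein that catalyses the opening steps of pyrimidine synthesis, stood at 0.69 and -0.13 on the 6 h slides, against -0.22 and -1.53 on the 4 h slides. Both 6 h slides lay above both 4 h slides, and the mean difference was 1.16 ± 0.36 (unadjusted p = 0.0124, limma). URA1, the dihydroorotate dehydrogenase of the pathway, stood at -0.84 and 0.01 on the 6 h slides, against -1.34 and -1.22 on the 4 h slides, a difference of 0.87 ± 0.41 that was 0.26 without the 4 h channel 2 slide. The other measured pathway genes, chosen with URA1 after values were seen, showed smaller values. URA5, URA6, URA7, URA8 and URA10 differed by between -0.07 for URA7 and 0.11 for URA8, and URA8 alone of these 5 had the same sign in both orientations.

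**Figure D2:**
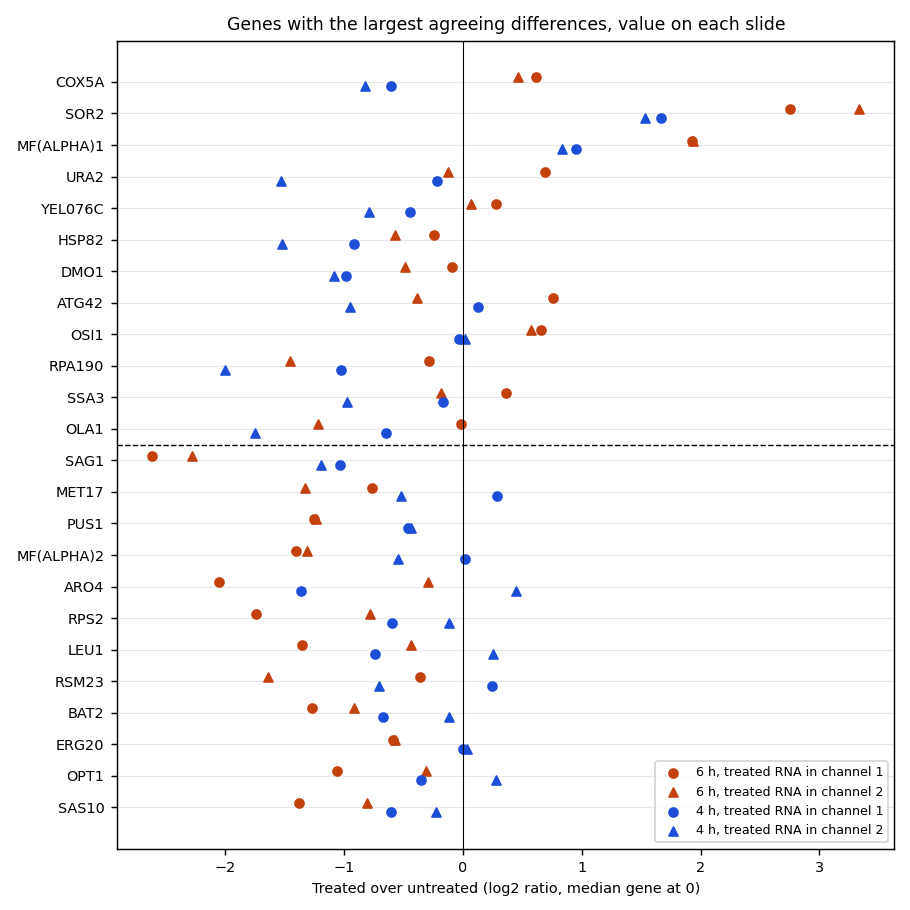
Each row is a gene and each symbol the treated over untreated log2 ratio on a slide (x axis, median gene at 0), red for 6 h and blue for 4 h, circles for treated RNA in channel 1 and triangles for channel 2. Genes above the dashed line were higher at 6 h in both orientations and those below it lower; COX5A separates on either side of 0, while for ARO4 the orientations lie further apart than the times.

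Chaperone genes differed among themselves. HSP82 (YPL240C), a cytosolic Hsp90, stood at -0.25 and -0.58 on the 6 h slides, against -0.92 and -1.53 on the 4 h slides, a mean difference of 0.81 ± 0.32 (unadjusted p = 0.035, limma). It was below the median gene at both times, less so at 6 h. SSA2 and SSA3, cytosolic Hsp70 chaperones, had differences of 0.50 and 1.05 and of 0.53 and 0.80. The SSA2 orientations were further apart than the times, at 0.57 and -0.92 on the 6 h slides, against 0.07 and -1.97 on the 4 h slides. HSP82 and SSA2 each have a near-identical paralog whose RNA their spots may also bind, so these values are uncertain as to the gene. HSP42, a small heat shock protein, stood at 1.03 and 0.79 on the 6 h slides, against 0.36 and 0.27 on the 4 h slides. Over the 35 measured chaperone genes, 10 were higher in both orientations and 10 lower, against 27.5% and 21.7% of all genes. With a median of -0.03, the list as a whole did not lean either way.

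General stress genes, targets of the Msn2 and Msn4 activators, were mostly above the median gene at both times. Of 30 measured, 25 were so on both 6 h slides and 21 on both 4 h slides. Of all 3127 genes, 1053 lay above it on both 6 h slides and 996 on both 4 h slides. In the difference, 13 of 30 (43.3%) were higher in both orientations and 1 (3.33%) lower, against 27.5% and 21.7% of all genes. The list median was 0.12, with 0.06 in channel 1 and 0.32 in channel 2, and -0.09 in channel 2 without centring. Without centring 5 members were higher in both orientations and 3 lower, against 6.3% and 32.5% of all genes. HSP12 (YFL014W), a membrane-stabilising stress protein, stood at 1.77 and 1.76 on the 6 h slides, against 1.51 and 0.32 on the 4 h slides. Its difference thus rests on the 4 h channel 2 slide, where it was low. GND2, a phosphogluconate dehydrogenase of the pentose phosphate pathway, stood at 0.32 and 0.54 on the 6 h slides, against -0.02 and -0.05 on the 4 h slides. HSP26, a small chaperone named after its values were seen, had orientations of opposite sign, -0.60 and 1.35. Trehalose and glycogen genes gave 4 of 8 higher in both orientations and 0 lower. One of those higher was TPS2, the trehalose phosphatase, with 0.36 and 0.50. TPS1, TPS2, TPS3, NTH2, PGM2 and GAC1 belong to both this list and the general stress list.

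Genes of the seripauperin family and the anaerobic cell wall had the highest median of the 37 lists, 0.29. Of 13 measured members, 8 (61.5%) were higher in both orientations and 0 lower, against 27.5% and 21.7% of all genes. For 5 of them both 6 h slides lay above both 4 h slides, as for 10.3% of all genes. PAU20 stood at 0.83 and 0.35 on the 6 h slides, against 0.46 and -0.25 on the 4 h slides. PAU17 and PAU16 had differences of 0.52 and 0.32 and of 0.33 and 0.37. The family members are so similar in sequence that their spots may bind the same RNAs, so the 8 genes are not separate measurements. Without centring the channel 2 median of the list was -0.10, against -0.37 for the median gene. Then 5 members were higher in both orientations and 3 lower, against 6.3% and 32.5% of all genes.

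Redox genes split in both directions. TRX1 (YLR043C), a cytosolic thioredoxin that also donates electrons to ribonucleotide reductase, stood at -0.61 and -0.45 on the 6 h slides, against 0.23 and 0.10 on the 4 h slides. It was below the median gene on both 6 h slides and above it on both 4 h slides, with a difference of -0.69 ± 0.23 (unadjusted p = 0.0178, limma). TRX2, the other cytosolic thioredoxin, stood at 0.43 and 0.02 on the 6 h slides, against 1.13 and 0.57 on the 4 h slides. TRX2 was named after its values were seen, as were the superoxide dismutase SOD1, with differences of -0.48 and -0.61, and the peroxiredoxin AHP1, with -0.51 and -0.34. All 4 of these genes were lower at 6 h in both orientations.

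Other genes of the oxidative stress list lay the opposite way. AAD14 (YNL331C), of the aryl-alcohol dehydrogenase family, stood at 1.40 and 1.30 on the 6 h slides, against 0.94 and 0.26 on the 4 h slides, a difference of 0.75 ± 0.24. The family members AAD15, AAD4 and AAD10, near-identical in sequence and all 3 named after their values were seen, gave differences of 0.52 and 0.73, of 0.28 and 0.26 and of -0.15 and 0.62. The spots of this family may bind the same RNAs. PRX1, the mitochondrial peroxiredoxin, had differences of 0.40 and 0.91. YMR315W, a protein with NADP-dependent oxidoreductase activity, stood at 2.46 and 3.42 on the 6 h slides, against 2.26 and 1.45 on the 4 h slides. Its differences were 0.20 and 1.97, and thus lay mostly in channel 2. The value of -0.30 without the 4 h channel 2 slide comes from the orientation gaps of the other slides. Of 29 measured targets of the Yap1 activator, 12 were higher in both orientations and 9 lower, against 27.5% and 21.7% of all genes. Their median was 0.15. Without centring 6 were higher and 12 lower, against 6.3% and 32.5% of all genes.

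Ribosomal protein genes lay further below the median gene at 6 h. The median over 49 measured genes was -1.26 in the mean of the 6 h slides and -1.03 in the mean of the 4 h slides. By orientation it was -1.17 and -1.44 on the 6 h slides, against -0.78 and -1.28 on the 4 h slides. The median difference was -0.22, with 26 members (53.1%) lower in both orientations and 1 (2.04%) higher, against 21.7% and 27.5% of all genes. For 14 members both 6 h slides lay below both 4 h slides, as for 8.54% of all genes. Without centring 35 members were lower in both orientations and 0 higher, against 32.5% and 6.3% of all genes. With the readings titled faible alone 31 were lower in both orientations, and with those titled fort alone 18. The channel 2 median difference was -0.26 with the faible readings and -0.01 with the fort readings. No member passed the test, and at an unadjusted p under 0.05 there were 0 in either direction.

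RPS2 (YGL123W), a protein of the small subunit, stood at -1.74 and -0.79 on the 6 h slides, against -0.60 and -0.12 on the 4 h slides. RPL30, of the large subunit, stood at -1.27 and -1.17 on the 6 h slides, against -0.71 and 0.10 on the 4 h slides, and the 4 h channel 2 slide was the high one. Its differences were -0.56 and -1.26, and its mean difference of -0.91 was -0.15 without the 6 h channel 2 slide. RPS13 and RPS19B, of the small subunit, had differences of -0.55 and -0.78 and of -0.64 and -0.57. RPS19A, named after its values were seen as the only member higher in both orientations, is a near-identical copy of RPS19B, and spots of such paralogs may bind the same RNA. The plot of cumulative shares shows the list shifted left of all genes along most of its range.

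**Figure D3:**
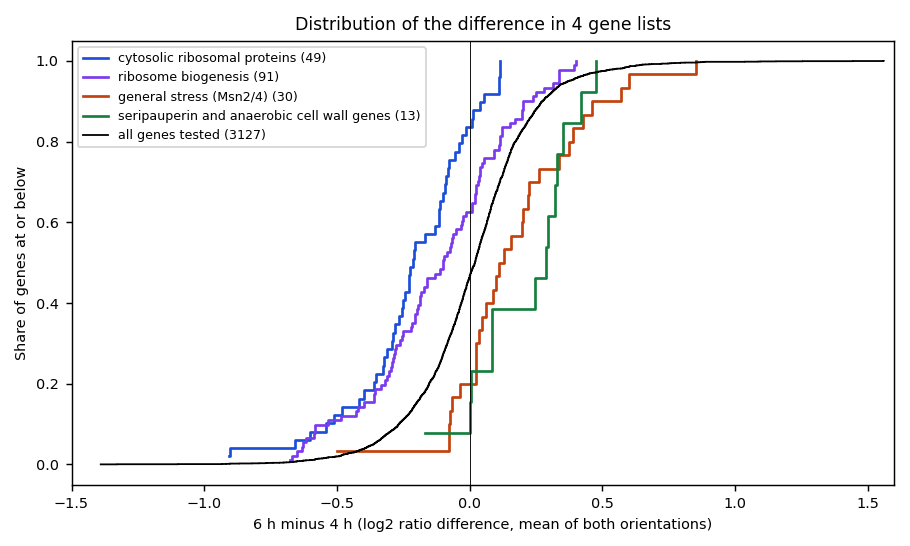
Cumulative share of genes (y axis) at or below a 6 h minus 4 h difference (x axis, log2 ratio difference, mean of both orientations) for 4 gene lists and for all 3127 genes in black. The curve of the 49 cytosolic ribosomal protein genes (blue, median -0.22) lies left of that of all genes (median 0.02), and those of the 30 general stress (red, 0.12) and 13 seripauperin and anaerobic wall genes (green, 0.29) lie right of it over most of the range.

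Ribosome biogenesis genes, which make and assemble ribosomes in the nucleolus, had a median of -0.44 on the 6 h slides and -0.26 on the 4 h slides. Of 91 measured, 42 (46.2%) were lower in both orientations and 16 (17.6%) higher. For 22 both 6 h slides lay below both 4 h slides, as for 8.54% of all genes. The median difference was -0.10. The shares over all genes were 21.7% lower and 27.5% higher. Without centring 48 members were lower and 1 higher, against 32.5% and 6.3% of all genes. At an unadjusted p under 0.05 there were 4 lower and 0 higher, against 17 lower (0.544%) and 21 higher (0.672%) of all genes. SAS10 (YDL153C), a processome component, stood at -1.39 and -0.81 on the 6 h slides, against -0.61 and -0.23 on the 4 h slides, and its 2 spots gave differences of -0.65 and -0.71. LOC1, a nucleolar factor of the large subunit, had differences of -1.02 and -0.32, and FCF2, which acts in early rRNA cleavage, -0.81 and -0.45. RPA190 (YOR341W), the largest subunit of RNA polymerase I, lay the other way, at -0.29 and -1.46 on the 6 h slides, against -1.03 and -2.0 on the 4 h slides. Its orientations were further apart than the times.

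PUS1 (YPL212C), a pseudouridine synthase of tRNA and other RNAs, stood at -1.26 and -1.24 on the 6 h slides, against -0.47 and -0.44 on the 4 h slides. Both orientations gave almost the same value at each time, and the difference was -0.79 ± 0.22 (95% interval -1.30 to -0.29, unadjusted p = 0.00697, limma). Among mitochondrial ribosomal proteins, RSM23, of the small subunit, had differences of -0.60 and -0.94, and MRPL40, of the large subunit, 0.44 and 0.40. Of 49 measured, 19 (38.8%) were lower in both orientations and 10 (20.4%) higher, against 21.7% and 27.5% of all genes, with a median of -0.11. Translation factors gave 5 of 21 higher and 6 lower, and tRNA synthetases 1 of 12 higher and 3 lower. DPS1, the aspartyl-tRNA synthetase, had differences of -0.35 and -0.67. OLA1, an ATPase of the GTP-binding protein family, had 0.63 and 0.53, with orientations again further apart than the times.

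MET17 (YLR303W), the homocysteine synthase of the sulfur pathway, stood at -0.77 and -1.33 on the 6 h slides, against 0.29 and -0.52 on the 4 h slides. The mean difference was -0.93 ± 0.32 (unadjusted p = 0.019, limma). At 1 h the gene stood at 1.04 and 0.44 and at 2 h at 1.22 and 1.65, so that it was lowest on the 6 h slides. MUP1, the high-affinity methionine permease, had differences of -0.64 and -0.35, and OPT1, a transporter of glutathione and peptides, -0.71 and -0.59. The sulfur list as a whole did not share a direction, with a median of -0.02. Of its 20 measured genes, 5 were higher in both orientations and 6 lower, against 27.5% and 21.7% of all genes. The sulfate permeases SUL1 and SUL2 had differences of 0.05 and 0.40 and of 0.47 and 0.16.

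Amino acid synthesis genes, targets of the Gcn4 activator, had the lowest median of the lists, -0.23. The orientations disagreed in size, with a median of -0.21 in channel 1 and -0.02 in channel 2. Of 32 members, 10 (31.3%) were lower in both and 5 (15.6%) higher, against 21.7% and 27.5% of all genes. ARO4, which opens aromatic amino acid synthesis, stood at -2.06 and -0.30 on the 6 h slides, against -1.37 and 0.45 on the 4 h slides. LEU1, an iron-sulfur enzyme of leucine synthesis, stood at -1.36 and -0.44 on the 6 h slides, against -0.75 and 0.26 on the 4 h slides. For both genes the orientations were further apart than the times, and the difference is seen only between slides of the same orientation. BAT2, the cytosolic branched-chain aminotransferase, had differences of -0.60 and -0.80. GLT1, the iron-sulfur enzyme glutamate synthase, lay the other way, at -0.79 and -1.01 on the 6 h slides, against -1.28 and -2.29 on the 4 h slides. ERG20 (YJL167W), the farnesyl diphosphate synthase of the sterol pathway, stood at -0.59 and -0.58 on the 6 h slides, against 0.00 and 0.04 on the 4 h slides. Of 16 measured sterol genes, 8 were lower in both orientations and 3 higher, against 21.7% and 27.5% of all genes, with a median of -0.06.

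**Figure D4:**
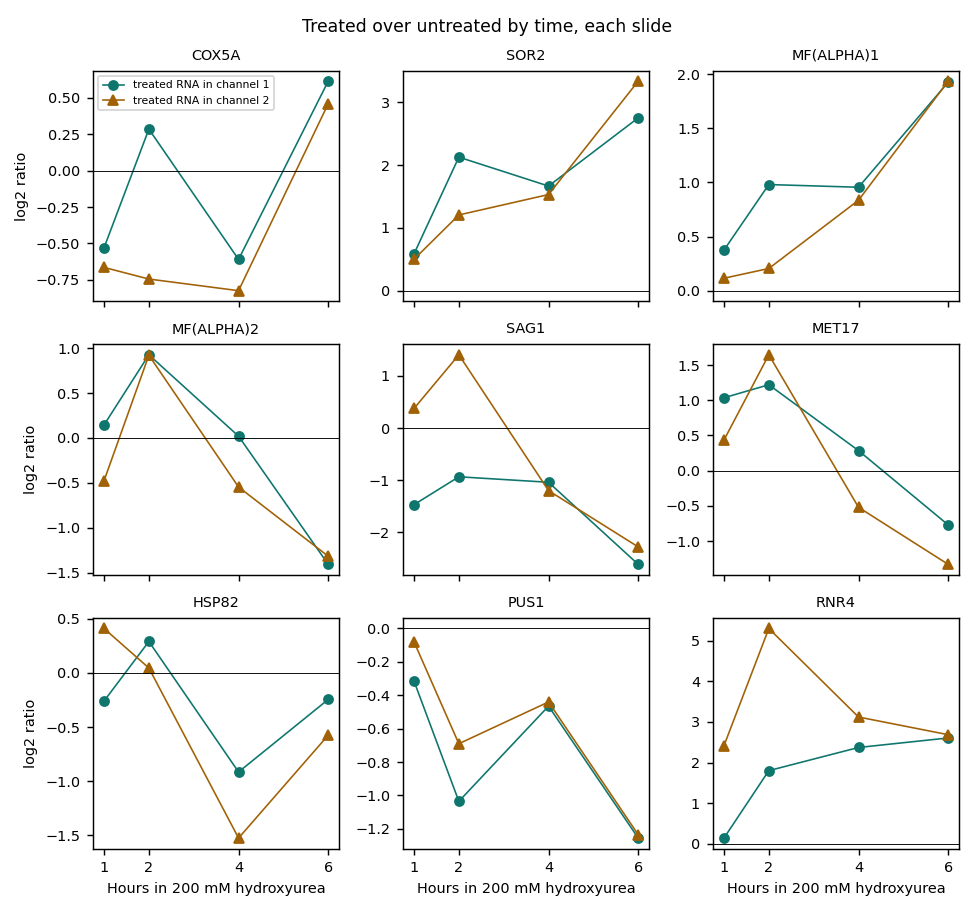
Treated over untreated log2 ratio (y axis, scaled per panel) against hours in 200 mM hydroxyurea (x axis) for 9 genes, with circles for slides with treated RNA in channel 1 and triangles for channel 2. SOR2 and MF(ALPHA)1 were highest and MF(ALPHA)2, SAG1, MET17 and PUS1 lowest at 6 h in both orientations, while the orientations of RNR4 were furthest apart at 2 h.

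Cell cycle transcripts gave no common direction. CTS1 (YLR286C), the chitinase that separates daughter from mother, stood at -2.80 and -2.80 on the 6 h slides, against -2.68 and -0.14 on the 4 h slides. Its mean difference of -1.39 ± 0.50 rests on the 4 h channel 2 slide, and the channel 1 slides differed by -0.12. SCW11, a wall glucanase with the same timing, was also high on that slide, at -0.96 and -1.23 on the 6 h slides, against -0.61 and 0.06 on the 4 h slides. EGT2, another separation gene, lay the opposite way, with 0.69 and 0.17. Of the 22 measured genes transcribed at the end of mitosis and the start of G1, 7 were higher in both orientations and 5 lower. The shares over all genes were 27.5% and 21.7%.

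Histone genes were below the median gene on all 4 slides and showed no difference of the same sign, and the 3 with values here were named after these were seen. HTB2, an H2B gene, stood at -1.59 and -1.95 on the 6 h slides, against -1.84 and -1.85 on the 4 h slides, and HTA2, the H2A gene beside it, at -0.66 and -1.43 on the 6 h slides, against -0.99 and -1.19 on the 4 h slides. HTB1, the other H2B gene, differed by -0.33. Among G2 and M transcripts, the microtubule bundler ASE1 had differences of 0.39 and 0.51 and YNL058C, a membrane protein of unknown function, 0.60 and 0.49, with 4 of 15 measured genes higher in both orientations and 6 lower. In the separate spindle and anaphase list, 10 of 41 measured genes were higher in both orientations and 14 lower, with a median of -0.05. CDC26, a subunit of the anaphase-promoting complex, had the highest mean difference of that list. It stood at 1.23 and 1.41 on the 6 h slides, against 0.86 and 0.34 on the 4 h slides. CLN1, a G1 cyclin, had differences of -0.21 and -0.33, in a list of 28 with 4 higher and 6 lower. Of all genes 27.5% were higher in both orientations and 21.7% lower.

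Replication and repair genes differed by small amounts. MCM2, a subunit of the replicative helicase, stood at -0.53 and -0.07 on the 6 h slides, against 0.07 and 0.08 on the 4 h slides. POL32, a subunit of DNA polymerase delta, lay the other way, with 0.43 and 0.51. Of 38 measured fork and origin genes, 10 (26.3%) were lower in both orientations and 3 (7.89%) higher, against 21.7% and 27.5% of all genes. Their median was -0.01. APN1, the major apurinic endonuclease of base excision repair, stood at -0.29 and -0.17 on the 6 h slides, against 0.06 and 0.23 on the 4 h slides. SLX4, a subunit of a structure-specific nuclease, had differences of 0.17 and 0.32. The 25 measured damage and repair genes gave 7 higher and 5 lower in both orientations.

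The largest mean difference of all 3127 genes was that of IRC10 (YOL015W), and it came from a single slide. IRC10, named after its values were seen and implicated in recombination, stood at 0.44 and 3.80 on the 6 h slides, against 0.14 and 0.98 on the 4 h slides. ESC8 (YOL017W), a silencing factor chosen in the same way, stood at 0.08 and 3.23 on the 6 h slides, against 0.18 and 0.94 on the 4 h slides. In the reference annotation only CMK2, a calmodulin-dependent kinase gene on the opposite strand, lies between them. CMK2, likewise named after its values were seen, did not share the pattern, at 0.79 and 0.91 on the 6 h slides, against 1.55 and 0.63 on the 4 h slides. Whether a feature of the 6 h channel 2 slide gave these values was not tested.

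Further genes named by the size of their smaller difference were little characterised. YEL076C, a subtelomeric gene of unknown function, stood at 0.28 and 0.07 on the 6 h slides, against -0.45 and -0.79 on the 4 h slides. DMO1 (YJR120W) stood at -0.10 and -0.49 on the 6 h slides, against -0.99 and -1.09 on the 4 h slides, and all 4 values were below the median gene. OSI1 (YKL071W) stood at 0.66 and 0.57 on the 6 h slides, against -0.04 and 0.02 on the 4 h slides, close to the median gene at 4 h. ATG42, a vacuolar carboxypeptidase, had differences of 0.63 and 0.56. These 4 genes were higher at 6 h in both orientations, and for all but ATG42 both 6 h slides lay above both 4 h slides.

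Several lists had few or no members lower in both orientations. Meiosis and sporulation genes gave 10 of 23 higher and 0 lower, with a median of 0.08, and autophagy and vacuolar protease genes 6 of 22 higher and 0 lower, with a median of 0.09. ADY3, of the prospore membrane, stood at 0.14 and 0.15 on the 6 h slides, against -0.09 and -0.09 on the 4 h slides. ATG8, the ubiquitin-like protein of autophagosomes, had differences of 0.43 and 0.44, and APE1, a vacuolar aminopeptidase, 0.67 and 0.39. The shares over all genes were 27.5% higher and 21.7% lower, so that the 6 autophagy genes were no larger a share than that, and their channel 1 median was -0.08. Without centring there were 1 higher and 7 lower of the meiosis genes and 3 higher and 7 lower of the autophagy genes. Of all genes 6.3% were then higher and 32.5% lower. Iron uptake genes gave 3 of 19 higher and 2 lower. As to the level at each time, 0 of 19 lay below the median gene on both slides of either time. Of all 3127 genes, 1042 lay below it on both 6 h slides and 1008 on both 4 h slides.

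Transporter and wall genes were mixed. GAP1, the general amino acid permease, stood at 0.78 and 1.35 on the 6 h slides, against 0.65 and 0.49 on the 4 h slides. PUT1, the proline oxidase, had differences of 0.39 and 0.61, while PTR2, the peptide transporter, had -0.74 and -0.53. TPO4, a polyamine transporter, stood at 1.68 and 0.69 on the 6 h slides, against 1.17 and 0.00 on the 4 h slides, and PDR16, a phospholipid transfer protein, at -0.28 and -0.40 on the 6 h slides, against 0.20 and 0.05 on the 4 h slides. PSA1, which makes GDP-mannose for the wall, had the lowest value of all genes on the 6 h channel 1 slide, with -2.97 and -1.82 on the 6 h slides, against -2.16 and -1.56 on the 4 h slides. PST1, a wall protein, had differences of 0.56 and 0.49. Proteasome genes gave 2 of 27 higher (7.41%) and 9 lower (33.3%) in both orientations, against 27.5% and 21.7% of all genes. Their median was -0.07, and the core subunit PUP1 had differences of -0.18 and -0.74.

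**Figure D5:**
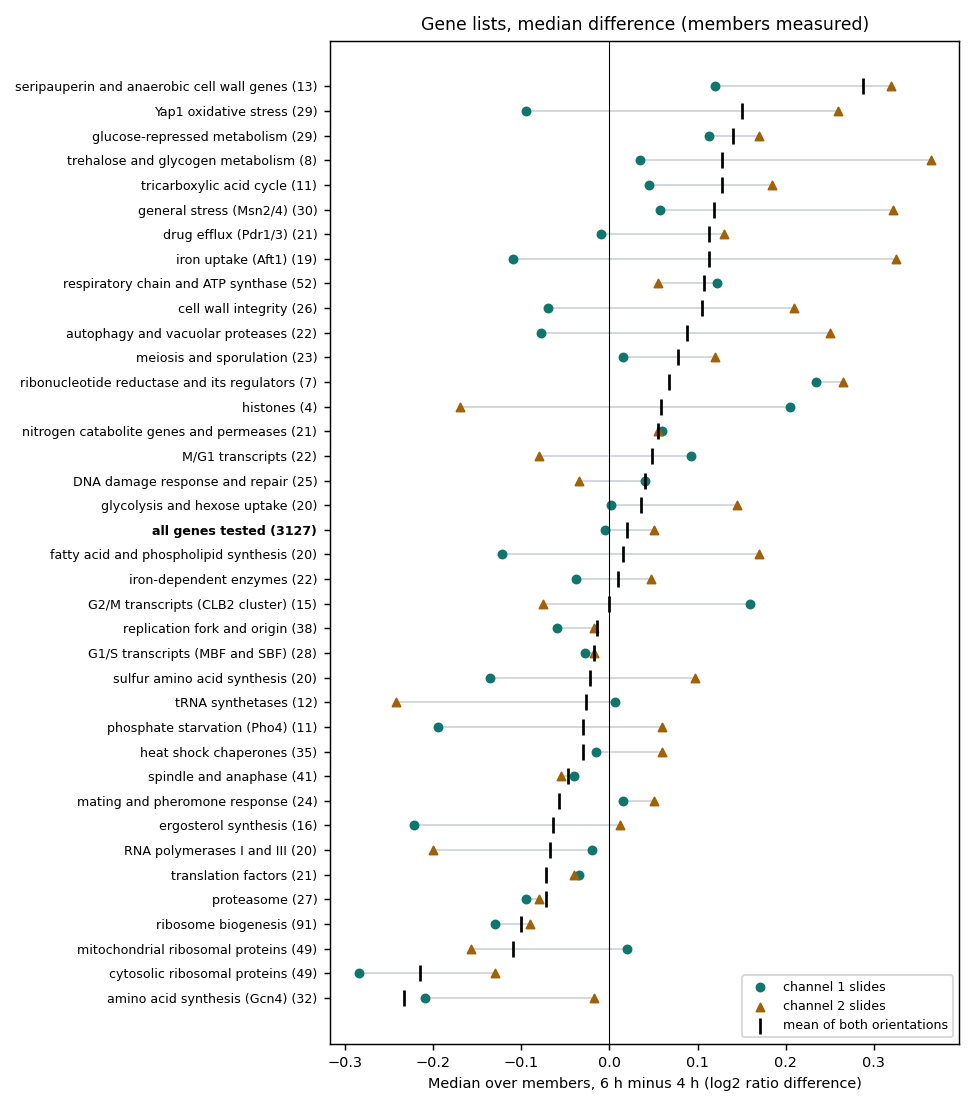
Median 6 h minus 4 h difference over the members of each gene list (x axis, log2 ratio difference), with a circle for the channel 1 slides, a triangle for the channel 2 slides, a bar for the mean of both orientations, and the number of measured members in brackets. Amino acid synthesis (-0.23) and cytosolic ribosomal proteins (-0.22) lie lowest and the seripauperin list (0.29) highest, all genes lie at 0.02, and for several lists, such as Yap1 targets, the orientations fall on either side of 0.

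The values also depended on where 0 was set. As deposited, the median gene itself stood at 0.29 at 6 h and 0.46 at 4 h, and its 6 h minus 4 h difference was 0.09 in channel 1 and -0.37 in channel 2. Without centring 197 genes (6.3%) were higher in both orientations and 1017 (32.5%) lower, and the channel 2 median of each of the 37 lists was below 0. Of the 19 lists with more members higher than lower in both orientations when centred, 14 had more lower without centring, 1 had as many higher as lower, and 4 still had more higher. Those 4 were the general stress, trehalose and glycogen, glucose-repressed and seripauperin lists. The trehalose and glycogen list shares most of its members with the general stress list, and without centring it had 2 of 8 higher and 1 lower. Of the 16 lists with more members lower when centred, 15 had more lower without centring too, and the G2 and M list had as many higher as lower. All differences given above are relative to the median gene.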

How the data were processed

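RNA of treated and untreated cells was compared on 8 slides in 2 colours, each with 2 readings, titled faible and fort (French for weak and strong), a distinction the labels do not explain. The deposited table held channel log ratios with 2 decimals. The authors' base and numerator are not stated in the labels, and the values were taken as log2, although a natural log cannot be told apart. Array processing by the authors is not given in the sources used here, and channel intensities were not used, so depth is unknown and the number of slides limits the precision.

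Of 6912 spots, 3344 named a single gene and were used, 387 named several and 3181 none. Symbols of 3343 spots were matched to the reference annotation, and spots of the same gene were averaged (207 of 3127 genes). Each reading was turned to treated over untreated and centred on the median over its single-gene spots. Both readings were then averaged to 1 value per slide. The model of limma 3.58.1 in R 4.3.3 used all 8 slides, with a coefficient per time and 1 for orientation (3 residual and 4.89 prior degrees of freedom, two-sided tests, Benjamini-Hochberg over 3127 genes, threshold 0.05). Errors with ± are its standard errors, and intervals are at 95%. On simulated data with independent normal noise, the model called 61 of 100 genes with a true difference of 1 and 99 of 100 with 2. It also called 8 of 2927 genes with no difference. Such data hold no artefact shared by the genes of a slide. An exact permutation test of 2 slides against 2 cannot give a two-sided p below 0.333 and was not used.

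Slides of opposite orientation were not paired by any replicate number of the labels. As no gene passed, the text names the 12 genes per direction with the largest smaller-of-the-2 orientation difference, RNR2, RNR4 and DUN1, and up to 4 members per list with the largest differences of the same sign in both orientations. Other genes are marked as named after their values were seen. The comparison and the 37 lists were chosen with earlier results of these data known, and lists were described by counts and medians only. Of the 882 measured list genes, 70 were in over 1 list. Alternatives changed the centring, reading, spot summary, gene filter, orientation term, variance moderation and slides. Sequences and promoter motifs were not analysed here.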

Additional observations from a re-analysis of the deposited data

Results flagged for a closer look

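A total of 10 named genes stood out because both 6 h slides lay on one side of the median gene and both 4 h slides on the other. None of these differences passed the test by limma (smallest adjusted p = 1, with 38 of all 3127 genes at an unadjusted p under 0.05), and such a split was met by 32 genes above at 6 h and below at 4 h (1.02%) and by 29 the other way (0.927%). Above at 6 h and below at 4 h were COX5A (mean difference 1.26), the gene of unknown function YEL076C (0.79), MDH1 (0.60), GND2 (0.46), TPS2 (0.43) and ADY3 (0.24). Below at 6 h and above at 4 h were TRX1 (-0.69), PDR16 (-0.46), MCM2 (-0.37) and APN1 (-0.37). Several of these values lay near 0. For ADY3 all 4 values were within 0.2 of the median gene, and for GND2 both 4 h values were within 0.1 of it. YEL076C, MDH1, PDR16, MCM2 and APN1 also had a value within 0.1 of it.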

How the results depend on the processing

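The count of 0 genes at an adjusted p under 0.05 held in each of 20 alternatives, with a smallest adjusted p of 0.223 as deposited, 0.340 on the 4 h and 6 h slides alone with orientation as the replicate block, and 0.357 without the 6 h channel 1 slide. The 38 genes at an unadjusted p under 0.05 became 73 after quantile normalization, 10 with no orientation term and 181 with that replicate block, and between 28 and 73 when a slide was left out, 73 without either 2 h slide. The 4 slides alone leave 1 residual degree of freedom, and the causes of the other shifts were not tested. Of 114 named genes, 79 kept the sign of their difference in each alternative run for them, 19 turned only when a slide was left out and 16 in another alternative. For 10 of the 114, which have several spots or stay under 0.5 on each slide, 19 of the 20 alternatives were run.

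With a 4 h or 6 h slide left out, the orientation gap of the other slides, 1 h and 2 h included, stood in for it. Such differences can therefore lie outside those seen in the 2 orientations. The lowest and highest differences with a slide left out are given for the genes that turned. They were RNR2 -1.42 to 1.37, RNR4 -1.15 to 0.95, MEC1 -0.086 to 0.41, COX7 -0.41 to 0.10, CBP3 -1.21 to 0.041, SOR1 -1.56 to 1.34, STE3 -0.35 to 0.087, AGA2 -0.11 to 0.24, MFA1 -0.079 to 0.34. Further ranges were SPO11 -0.36 to 0.17, URA7 -0.58 to 0.44, HSP26 -0.31 to 1.06, TPS2 -0.18 to 1.03, AAD10 -0.086 to 0.56, YMR315W -0.30 to 2.47, RPS13 -1.34 to 0.020, SUL1 -0.063 to 0.51, LEU1 -1.40 to 0.097. Additional ranges were BAT2 -1.42 to 0.023, HTB2 -0.15 to 0.29, HTA2 -0.43 to 0.52, HTB1 -0.68 to 0.021, IRC10 -0.11 to 3.23, ESC8 -0.35 to 2.54, CMK2 -0.97 to 0.49, PUP1 -0.98 to 0.064, URA5 -0.24 to 0.43. The remaining ranges were URA6 -0.52 to 0.46, URA10 -0.11 to 0.17, COX6 -0.10 to 0.33, COX8 -0.28 to 0.048, COX9 -0.40 to 0.20, COX12 -0.10 to 0.35. Of the 79 genes that kept their sign, 55 moved by over 1.5 times with a slide left out, and for 30 the difference nearest to 0 was under 0.5 times that with all slides. Those nearest differences were DUN1 0.16, ATP2 0.089, CIT1 0.22, SDH2 0.084, LSC2 -0.14, AQY3 0.33, SAG1 -0.49, MFA2 0.024, AGA1 -0.048, URA1 0.26, HSP42 0.21, HSP12 0.31, AAD4 0.088, PRX1 0.29, RPL30 -0.15, RPS19B -0.25, MUP1 -0.23, ARO4 -0.14, ERG20 -0.27, CTS1 -0.51, SCW11 -0.30, EGT2 0.089, MCM2 -0.16, OSI1 0.21, ATG42 0.16, ADY3 0.068, APE1 0.0017, GAP1 0.16, PTR2 -0.32, PSA1 -0.18. Without centring the differences that turned were MEC1 0.00, AGA2 -0.098, MFA1 -0.033, URA8 -0.055, HTB2 -0.090, HTA2 -0.12, URA5 -0.068, URA10 -0.13, COX6 -0.050, COX12 -0.040. Faible readings alone turned RNR2 0.17, RNR4 0.23, AHP1 0.10, URA10 -0.005, fort readings alone turned URA6 0.005, and quantile normalization turned URA7 0.0016, HSP26 -0.41, URA10 -0.051. Signal over background is unknown, and the labels do not say whether slides shared cultures or the untreated RNA.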
